A study of Drosophila melanogaster with 3 samples.

Results

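The Mediator genes are the 29 protein-coding genes of the Ensembl annotation that are named MED followed by a number, together with skd, kto, CycC and Cdk8, of 13968 protein-coding genes in all. They were chosen by name. Each was read for where Bab1 lies on the fly genome in chromatin immunoprecipitation followed by sequencing (ChIP-seq). Bab1, the product of bric-a-brac 1, binds DNA and carries a BTB domain, and is known for roles in abdominal pigmentation, the ovary and the distal leg. There was 1 group of 3 biological replicates, whole adult Drosophila melanogaster females of unknown age from a transgenic line, labelled bab1-RA (bab1-s)-GFP, whose Bab1 carries GFP at its C terminus, and the immunoprecipitation used an antibody to GFP. No untagged flies and no second condition were used here, so every value describes sites within these 3 samples, and in whole flies the cells behind a peak are unknown.

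Mediator is the large complex that carries signals from DNA-bound activators to RNA polymerase II at promoters. Its head and middle modules touch the polymerase, its tail is the main landing site for activators, MED14 is the backbone that joins them, and the kinase module of Cdk8, CycC, kto (Med12) and skd (Med13) binds reversibly and can block contact with the polymerase. Nearly all cells use the core subunits, while in flies kto and skd are known from developmental patterning. The intersex gene, whose product is the fly MED29, does not match the naming rule and was left out.

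The peak files list sites with a signal value that ranks peaks within its own list. The list kept for reproducibility, by the irreproducible discovery rate (IDR), held 6896 peaks, and the pooled list and each replicate list held 30000. The top list of a replicate is its strongest 6896 peaks. Ranks below count from 1, the strongest. A gene carries a peak where a summit falls in its body or in the 1000 bp before its start. The tagged gene, bab1, carried 5 IDR peaks, the best at rank 2632. Read depth is unknown from these lists.

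Of the 29 Mediator genes, 25 carried an IDR peak (86.2%, exact 95% confidence interval 68.3% to 96.1%), against 44.2% of all protein-coding genes. The interval covers counting error only and takes no account of peaks that neighbouring genes share. The replicate top lists held 24, 25 and 22 members in replicates 1, 2 and 3, or 81.6% ± 5.27 (SD, n = 3). Of all protein-coding genes, the same lists held 42.8%, 43.3% and 42.1%. In each replicate the members' share stood above that of all genes. The SD describes replicates of the same 29 genes, not the error of a share over few genes. A peak in all 3 top lists was present at 21 members (72.4%), against 33.8% of all protein-coding genes. Another 4 members had one in exactly 2 top lists, and the remaining 4, the members with no IDR peak, had one in none. In the whole pooled list all 29 members carried a peak, but so did 67.0% of protein-coding genes.

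The rule by gene body favours long genes, and the members are short, with a median length of 1330 bp (range 694 to 34621 bp) against 2164 bp for all protein-coding genes. With only summits within 250 bp of a gene's own transcription start site (TSS) counted, 23 members carried an IDR peak (79.3%), against 35.9% of all protein-coding genes.

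Peaks at members were common but ordinary in strength. The strongest IDR peak of a member had a median rank of 2536, or the 36.8th percentile of the list, while the median over the 6177 protein-coding genes with an IDR peak was 2741, the 39.7th percentile. Among the strongest 3448 peaks lay 15 of 25 (60.0%), against 60.4% of those genes. Among the strongest 10% of peaks lay 2 of 25, against 14.3%. Over the replicate top lists the members' median percentile was 41.9 ± 6.22 (SD, n = 3). The same median was not computed there for all protein-coding genes. This spread therefore cannot weigh the distance between members and all genes with a peak.

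**Figure D1:**
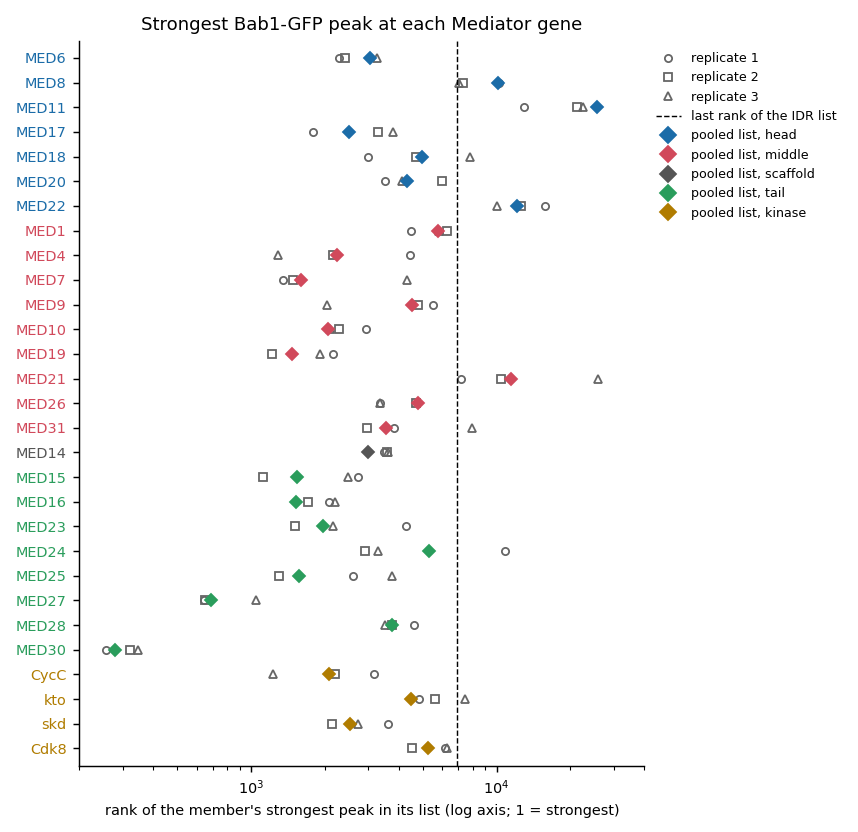
Rank of the strongest peak at each of the 29 Mediator genes in the pooled list (filled diamonds, coloured by module) and in each replicate list (open symbols), on a log axis where 1 is the strongest. The dashed line is the end of the IDR list at rank 6896, left of which lie the diamonds of 25 members; MED30 and MED27 lie farthest left, and MED11 lies farthest right.

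In the tail module, which receives activators, 8 of the 8 listed members carried an IDR peak, against 44.2% of all protein-coding genes. These were MED15, MED16, MED23, MED24, MED25, MED27, MED28 and MED30, with a median best rank of 1552. MED29, also placed in the tail here, was left out by the naming rule. MED30 had the strongest peak of all members, at chromosome 3L, 654030 to 654437, with rank 280 in the IDR list. In replicates 1, 2 and 3 it ranked 257, 321 and 346, so all 3 replicates placed it near the top. MED27 followed, on 3R at 5654811 to 5655195, with rank 688 and replicate ranks of 642, 652 and 1047. These were the members in the strongest 10%.

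The peaks of MED30 and MED27 lay in the short DNA between the member and a gene transcribed the other way. Rev1, a translesion DNA polymerase gene, starts 274 bp from MED30, and elm starts 278 bp from MED27. The stretches between the starts are shown because they hold the strongest member peaks, 5′ to 3′ on the member's strand, from dm6. Capitals mark GAGAG (read here as its reverse complement, CTCTC) at MED30 and CGATA (likewise read as TATCG), the core bound by the boundary factor BEAF-32, at MED27. Matches to CANNTG and to the initiator core TCAGT, described further on, are not capitalised in any stretch shown. The summit is base 105 of the first, chr3L:654090-654362 (minus strand), and base 88 of the second, chr3R:5654862-5655138 (plus strand).
MED30: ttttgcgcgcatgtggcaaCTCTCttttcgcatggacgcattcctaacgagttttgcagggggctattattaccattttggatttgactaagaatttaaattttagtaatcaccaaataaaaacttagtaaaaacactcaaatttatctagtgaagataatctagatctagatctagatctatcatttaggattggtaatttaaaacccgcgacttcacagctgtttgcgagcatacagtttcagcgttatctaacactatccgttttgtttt
MED27: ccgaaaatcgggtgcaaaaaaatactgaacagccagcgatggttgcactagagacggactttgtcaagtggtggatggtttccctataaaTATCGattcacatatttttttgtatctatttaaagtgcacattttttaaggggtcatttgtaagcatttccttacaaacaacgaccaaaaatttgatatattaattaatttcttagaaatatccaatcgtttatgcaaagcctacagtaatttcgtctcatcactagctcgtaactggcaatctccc

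At MED30 the summits of the 3 replicates lay within 13 bp of each other, and at MED27 within 49 bp. The CGATA letters at MED27 begin 3 bases from the IDR summit, while at MED30 none of the patterns searched lay within 50 bp of the summit.

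MED16 (rank 1525, replicates 2079, 1701 and 2204), MED15, the activator target named from yeast and human work (rank 1532, replicates 2736, 1122 and 2490), and MED25 (rank 1571, replicates 2613, 1304 and 3735) followed closely. MED15 and MED25 each carried a second IDR peak, at ranks 3995 and 3144. The stronger peak of MED15 lay 730 bp upstream of its start and 83 bp from that of CG4297, and the whole list of replicate 1 had no peak over its summit. That replicate's strongest peak at MED15 lay at the second site. MED25 had one summit 313 bp upstream, 122 bp from the start of Hs6st, a heparan sulfate sulfotransferase gene, and another 101 bp upstream of its own start.

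MED23, a subunit known in mammals as a target of growth factor signals, had rank 1960, with its summit 7 bp inside its own first exon, and ranked 4261, 1505 and 2148 in replicates 1, 2 and 3. MED28 had rank 3764 (replicates 4620, 3767 and 3514), so all 3 replicates held it in the top list. MED24 had rank 5307, and ranked 10863 in replicate 1 but 2905 and 3285 in replicates 2 and 3. For the strongest peak of each list, this ratio of 3.74 between highest and lowest was the largest among the 25 members. At the IDR summit itself, MED31 (6.13) and MED17 (4.47) had larger ratios. Replicate 1 therefore lacked MED24 in its top list.

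In the middle module, 8 of 9 members carried an IDR peak, against 44.2% of all protein-coding genes. These were MED1, MED4, MED7, MED9, MED10, MED19, MED26 and MED31, with a median best rank of 2897. MED19, at the contact with polymerase and in flies a partner of Hox proteins, had the strongest, on 3L at 17846275 to 17846643, with rank 1475 and replicate ranks of 2152, 1220 and 1910. Its summit lay 54 bp downstream of its start, in the 5′ untranslated region, and the 3 replicate summits fell within 31 bp. A second peak, rank 5056, lay in a coding exon of the neighbour CG7430, 721 bp upstream of MED19.

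MED7, which pairs with MED21 in the hinge of the middle module, had rank 1601 and ranked 1346 and 1485 in replicates 1 and 2, but 4328 in replicate 3. MED10 had rank 2050 and replicate ranks of 2929, 2280 and 2089, and its 3 replicate summits lay within 12 bp, the closest among members. MED4, another subunit of this module, had rank 2235. Its strongest peak ranked 4458, 2164 and 1282 in replicates 1, 2 and 3, and the start nearest to the IDR summit, 14 bp away, belonged to an antisense RNA, asRNA:CR43470. The peak of replicate 3 had its summit at -89 bp from the start of MED4 (upstream), near the IDR summit at -99 bp, but ended just short of the IDR summit.

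MED31 had rank 3559, with replicate ranks of 3826, 2958 and 7949, so its strongest peak in replicate 3 missed the top list. That replicate 3 peak lay 329 bp inside the gene, and the replicate 3 peak over the IDR summit of MED31, 196 bp upstream, ranked only 18129. Its start is shared with slx1, an endonuclease subunit gene, as annotated. MED9 had rank 4511 (replicates 5532, 4778 and 2041), with its summit 9 bp from a start it shares with CG42518. MED26, which in mammals recruits elongation factors, was the only member on chromosome 4 (787445 to 787592, rank 4796). It ranked 3345, 4679 and 3343 in the replicates, and its summit lay 129 bp inside the gene. MED26 was also the only member whose body with its 1000 bp upstream overlapped that of no other protein-coding gene. MED1, a large subunit that in mammals meets nuclear receptors, had the weakest best peak of the 25, rank 5764, with 4491, 6284 and 5812 in replicates 1, 2 and 3, all within the top lists.

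MED14, the backbone, had rank 2988 (3L, 593055 to 593478), with a summit 21 bp inside the gene. Its ranks of 3483, 3588 and 3623 in replicates 1, 2 and 3 differed by a ratio of 1.04 between highest and lowest, the smallest among the 25 members with an IDR peak.

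The kinase module had an IDR peak at 4 of 4 members, against 44.2% of all protein-coding genes. CycC, the cyclin, had rank 2070 (3R, 14890160 to 14890283) and ranked 3156, 2206 and 1227 in the replicates. Its summit lay 16 bp before its start and 10 bp from that of UQCR-C1, a core subunit gene of respiratory complex III. The 2 starts are 26 bp apart, so a summit here cannot be given to one gene. The fly skd gene, the longest member, had rank 2536, and its strongest peak ranked 3629, 2137 and 2730 in replicates 1, 2 and 3. The replicate 3 value is of a peak whose summit lay at -210 bp from a start of skd, and at the IDR summit replicate 3 ranked 3099. The IDR summit lay 568 bp upstream of skd and 87 bp from a start of Pdss2, a coenzyme Q synthesis gene, inside the 5′ untranslated region of Pdss2. The pooled list put 17 peaks at skd and the replicates 14, 16 and 19, of which 1 passed the IDR test.

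For kto the rank was 4482, with 4811 and 5631 in replicates 1 and 2 and 7429 in replicate 3, outside that top list. Cdk8, the kinase itself, had rank 5260 and ranked 6182, 4538 and 6307, with its summit 8 bp before its own start and no divergent neighbour within 1000 bp. The summits of the 3 replicates spread over 130 bp there and over 107 bp at kto, wider than the median range of 54.0 bp over the 27 member peaks that all 3 whole replicate lists covered.

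The head module had the lowest share of the modules, with an IDR peak at 4 of 7 members (MED6, MED17, MED18 and MED20). With so few genes, this count is near the 44.2% of all protein-coding genes. The median best rank in the head was 3686. MED17, a central head subunit, had rank 2505. Its strongest peak ranked 1792, 3280 and 3800 in replicates 1, 2 and 3, but at the IDR summit itself replicate 1 had only rank 14665, 138 bp downstream. MED6 had IDR peaks at ranks 3040 and 3688, and its strongest peak ranked 2275, 2414 and 3260. The first of its summits lay 3 bp from a start of Naa80, an actin acetyltransferase gene that overlaps MED6. MED20, in the mobile part of the head with MED18, had rank 4331 and replicate ranks of 3506, 5969 and 4116. Its summit lay in the 5′ untranslated region of Trf, a TBP-related factor gene that starts 47 bp away from MED20. MED18 had rank 4975, with 2987 and 4687 in replicates 1 and 2 and 7818 in replicate 3, below the top list.

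The members without an IDR peak were MED8, MED11 and MED22 of the head and MED21 of the middle. All had peaks in the pooled and replicate lists, at lower ranks. MED8 ranked 10123 in the pooled list and 10251, 7336 and 7058 in replicates 1, 2 and 3, just short of the top lists in the last pair. MED21 ranked 11413, with 7198, 10434 and 25910 in the replicates, and MED22 ranked 12093, with 15696, 12582 and 10060. MED11, at rank 25594 (replicates 12905, 21344 and 22497), was the weakest. The rank of MED21 spread the most of these 4, and replicate 1 placed it near its top list while replicate 3 placed it near the end of its list. Their pooled peaks are to be read against the 67.0% of all protein-coding genes that carry one in that list.

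Whether the head module differs from the other modules was not tested, since modules hold few genes and their promoters share peaks with unrelated neighbours. Module counts and ranks also depend on which subunits are placed in which module, and no other placement was tried.

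Most member peaks sat at the start of the gene. Of the 29 IDR summits at members, 24 (82.8%, exact 95% confidence interval 64.2% to 94.2%) lay within 250 bp of a TSS of the member and 18 within 100 bp. The median distance to any TSS was 54.0 bp, against 114 bp over all 6896 IDR summits. Member summits had to lie in the gene body or in the 1000 bp before its start, while the full list was under no such rule. These medians therefore cannot show whether member peaks lie closer to a start than peaks at other genes. The share of summits within 250 bp was not computed for peaks at all protein-coding genes. Upstream of the member's nearest start lay 23 summits. Between genes lay 15, 12 were in a 5′ untranslated region, 1 in a coding exon and 1 in an intron. Only 7 lay within the body of the member. These counts of position were not made over all IDR summits, so whether they are particular to the members is unknown. With no upstream DNA counted, 6 members had an IDR peak (MED1, MED6, MED14, MED19, MED23 and MED26), or 20.7%, and so did 21.0% of all protein-coding genes.

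The members are packed against other genes. A protein-coding gene on the opposite strand started within 1000 bp upstream of 21 of 29 members (72.4%), which holds for 36.2% of all protein-coding genes. The gap between the 2 starts had a median of 259 bp in members (range 19 to 859 bp) and 298 bp in all such genes. Of these 21 members, 19 carried an IDR peak (90.5%), against 70.8% of protein-coding genes with such a neighbour. Of the other 8, MED4, MED14, MED24, MED26, kto and Cdk8 carried one and MED11 and MED21 did not (75.0%), against 29.2% of protein-coding genes without such a neighbour. Over all protein-coding genes the share with a peak was higher with such a neighbour, while among members the 2 shares differ by only a few genes. The part of gene arrangement in the members' share was not tested.

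The summit was often nearer to the neighbour. For 13 of 25 members the start nearest to the strongest IDR summit belonged to another gene, and for 12 to the member. At the 19 members with a divergent neighbour and a peak, the summit lay between the starts in 11 and was nearer the neighbour's in 12. The same counts were not made over all protein-coding genes with an IDR peak. Whether they are particular to the members is therefore unknown. The neighbours included genes of unrelated processes, such as Nup75 of the nuclear pore beside MED9, Cap-H2 of condensin beside MED7, Gmer of GDP-sugar synthesis beside MED23 and ORMDL of sphingolipid control beside MED1. Where the summit lies between the starts, these lists do not say which gene it belongs to. At others it lay by the member, such as MED1, where it was 11 bp inside the member and 870 bp from the start of ORMDL.

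**Figure D2:**
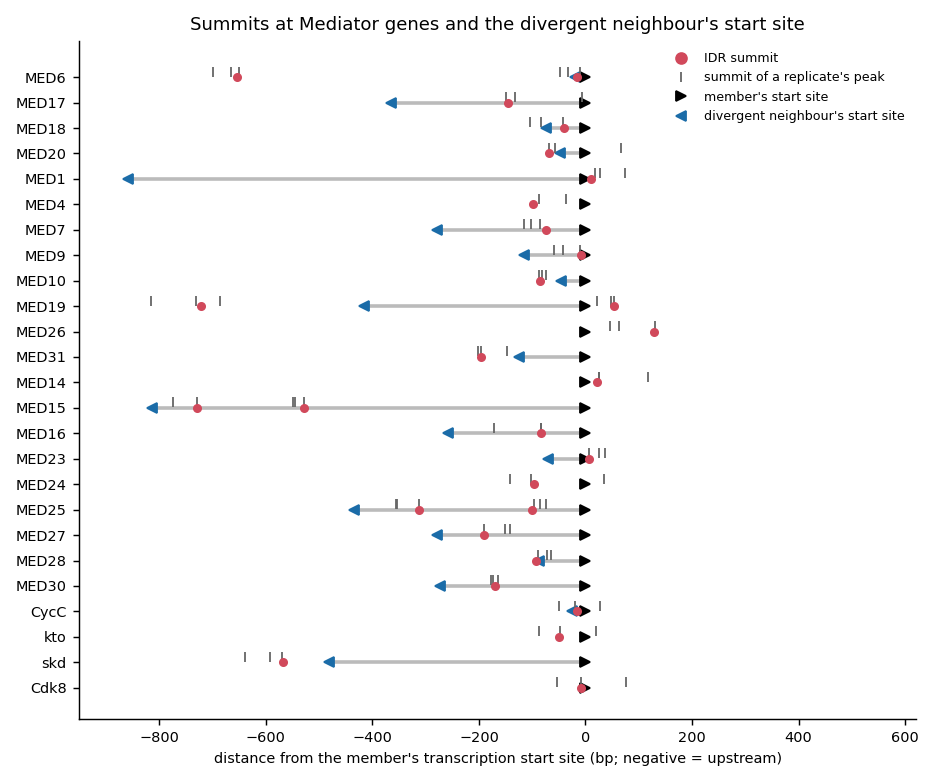
Position of IDR summits (red points) and of the summits of replicate peaks over them (grey ticks) at the 25 Mediator genes with an IDR peak, in bp from the member's start (black arrowhead, negative is upstream), with the start of a divergent protein-coding neighbour (blue arrowhead) and the gap between them (grey line). For MED6, which has 5 annotated starts, 0 is the start nearest Naa80. Summits gather close to the member's start or in the gap, with MED15, skd and the second peak of MED19 farther upstream. The second peak of MED6 is drawn far upstream too, but lies 33 bp downstream of another MED6 start.

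The replicates placed summits closely. Over the 27 IDR summits that lay in a peak of all 3 whole replicate lists, the replicate summits spanned 12 to 177 bp, 13 of them 50 bp or less and 6 over 100 bp. All 29 summits lay in the top list of at least 2 replicates, and 21 (72.4%) in all 3. Of all IDR peaks, 57.0% lay in all 3, while the share in at least 2 was not computed. The IDR list was itself selected for agreement between these replicates. Across members, Spearman's rho of the ranks at the strongest IDR peak was 0.630 between replicate 1 and replicate 2, over 24 peaks. It was 0.406 between replicate 1 and replicate 3, over 23 peaks, and 0.623 between replicate 2 and replicate 3, over 24. These values describe peaks called against the same control library.

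Promoters of Mediator genes held some of the core promoter letters typical of broadly used fly genes. The patterns were searched on both strands from 250 bp before to 50 bp after each gene's outermost annotated start. Member shares cover all 29 members, with or without an IDR peak. Motif 1 (GGTCACACT) stood in 9 of 29 member promoters (31.0%), among them MED8, MED11 and MED22, which had no IDR peak. The share was 6.04% of all protein-coding promoters and 10.9% of those of genes with an IDR peak. The DRE, the site of the factor Dref (TATCGATA), stood in 7 (24.1%), against 9.36% and 16.6%. A spelling of the motif 7 core (CAGCNCT) stood in 9 (31.0%), against 16.1% and 20.4%. The initiator core TCAGT stood in 8 (27.6%), against 51.5% and 45.4%.

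The other patterns were nearer to the shares of all genes. CGATA, which the DRE contains, stood in 48.3% of member promoters, against 47.3% of all and 57.9% of those with a peak. GAGAG stood in 20.7%, against 29.7% and 27.4%, TATATA in 17.2%, against 23.8% and 23.1%, and CACGTG in 3.45%, against 4.20% and 4.92%. CANNTG, which includes CACGTG, stood in 75.9%, against 77.2% and 76.3%. With 29 promoters, 1 promoter is worth over 3 percentage points, and none of these differences was tested.

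**Figure D3:**
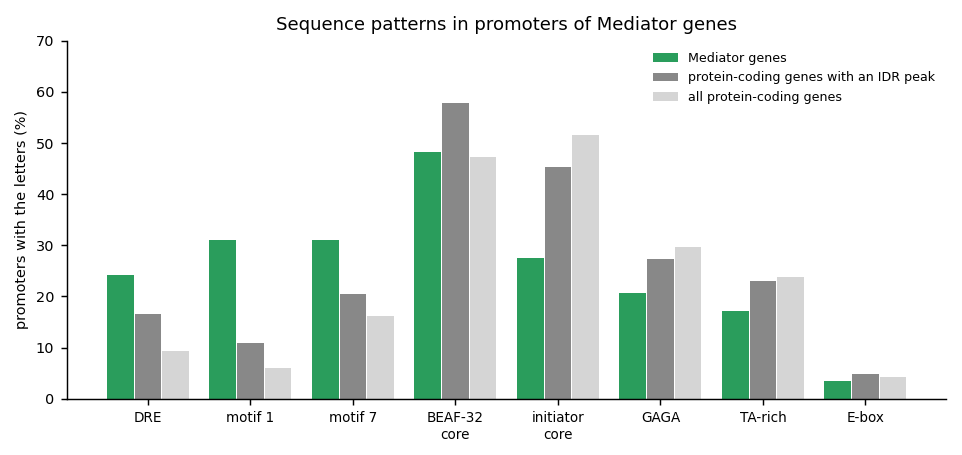
Share of promoters (250 bp before to 50 bp after the start, in percent) that hold each pattern, in the 29 Mediator genes (green), in protein-coding genes with an IDR peak (dark grey) and in all protein-coding genes (light grey). Motif 1, the DRE and motif 7 stand higher in Mediator promoters and the initiator core lower, while the CGATA core is within 1 promoter of all genes.

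At the summits themselves, within 50 bp on either side, motif 1 stood in 3 of 29 member windows (10.3%, MED10, MED19 and MED23), against 2.41% of all IDR summits. The DRE stood in 2 (6.90%, MED18 and MED28), against 4.41%. CGATA stood in 7 (24.1%), against 23.0%, GAGAG in 3 (10.3%), against 11.7%, and CANNTG in 7 (24.1%), against 39.4%. The initiator core stood in 4 (13.8%), against 18.9%, motif 7 in 3 (10.3%), against 6.87%, TATATA in 1 (3.45%), against 7.93%, and CACGTG in none, against 1.25%. Most member summits thus held neither the DRE nor motif 1. Median GC content was 37.6% in member windows and 38.6% in all. A match is a run of letters and no evidence of a bound factor.

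The DNA between the starts of MED18 and Gcna, a germ cell protease gene, and between MED28 and CG4553 is shown because a DRE lies near both summits. The third stretch, between MED7 and Cap-H2, has a DRE that lies over 100 bp from the summit. Each is 5′ to 3′ on the member's strand, from dm6, with capitals for the DRE, the CGATA core, the TA-rich run TATATA and the motif 7 core. They are chrX:1865836-1865908 (plus strand), chr3R:25476916-25477002 (plus strand) and chr3R:10761033-10761309 (minus strand).
MED18: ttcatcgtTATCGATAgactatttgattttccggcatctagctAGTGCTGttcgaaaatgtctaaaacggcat
MED28: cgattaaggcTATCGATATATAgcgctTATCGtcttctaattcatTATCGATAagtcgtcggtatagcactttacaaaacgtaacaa
MED7: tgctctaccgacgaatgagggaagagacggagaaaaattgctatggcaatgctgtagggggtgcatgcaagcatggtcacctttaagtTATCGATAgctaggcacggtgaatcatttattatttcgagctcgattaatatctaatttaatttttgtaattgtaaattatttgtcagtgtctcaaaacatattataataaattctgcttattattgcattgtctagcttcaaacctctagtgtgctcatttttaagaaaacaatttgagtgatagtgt

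In MED18 the DRE is centred 20.5 bp from the summit, which is base 33 of the stretch. In MED28 the nearer of 2 DREs is centred 18.5 bp from a summit that falls 4 bp from the start of CG4553, just outside the stretch. MED7 has its summit at base 203, well past its DRE at base 89. The peaks of MED18 and MED28 ranked 4975 and 3764. Members whose summit windows hold no DRE ranked on either side of these, from 280 at MED30 to 5764 at MED1. Whether the DRE goes with rank was not tested.

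Motif 1 lay at the summits of MED10 and MED19, shown as the motif in capitals with 10 bases on either side (chr3L:16232006-16232034 and chr3L:17846475-17846503, both minus strand).
MED10: ggaatagcaaGGTCACACTgttcaatcgc
MED19: gtcgcaatgcGGTCACACTggttcgcgga

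The motif was centred 21.0 bp from the summit at MED10 and 42.0 bp from it at MED19. It read with the direction of transcription of MED19, 12 bp inside the gene, and against that of MED10, 64 bp upstream of its start.

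Other genes of the polymerase II machinery, from lists chosen by name, mostly carried peaks too. General transcription factors and TBP-associated factors (TAFs) carried an IDR peak at 30 of 32 (93.8%), all but Taf6 and TfIIFbeta, with 86.5% ± 4.77 in the top lists of the 3 replicates (SD, n = 3). Their strongest was at Ssl1, a TFIIH subunit gene, at rank 20. Factors of pausing and elongation carried one at 13 of 15 (86.7%, top lists 88.9% ± 7.70), all but NELF-B and Spt6, led by Nelf-E at rank 422. Subunits of polymerase II itself carried one at 8 of 12 (66.7%, top lists 63.9% ± 4.81), led by Polr2B at rank 467 and without one at Polr2C, Polr2I, Polr2K and Polr2L. The Mediator genes, at 86.2% and 81.6% ± 5.27, stood below the general factors and the pausing and elongation factors on both measures. They stood above the polymerase subunits. With only summits within 250 bp of an own TSS counted, the share was 84.4% for the general factors and 79.3% for Mediator. It was 73.3% for pausing and elongation factors and 66.7% for polymerase subunits. By that rule Mediator stood above the pausing and elongation factors. The SD describes replicates of the same genes, not the error of a share over few genes. No difference between lists was tested. The 44.2% of all protein-coding genes is the level to read each against, or 35.9% where only summits within 250 bp of a TSS count.

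**Figure D4:**
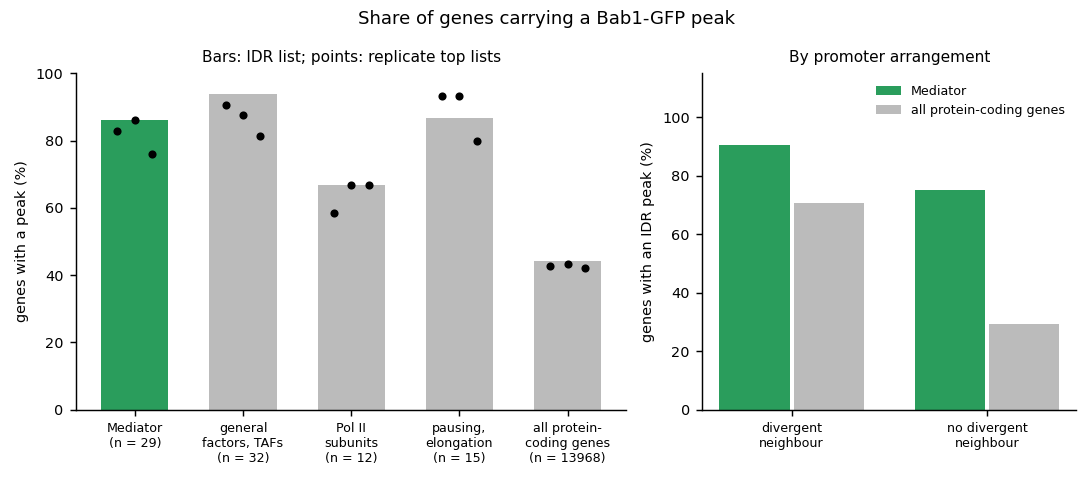
Left, the share of genes with an IDR peak (bars) and with a peak in the top list of replicates 1, 2 and 3 (points, left to right), in percent, for 29 Mediator genes, 32 general factors and TAFs, 12 polymerase II subunits, 15 pausing and elongation factors and all 13968 protein-coding genes. Right, the share with an IDR peak for genes with and without a divergent protein-coding start within 1000 bp upstream, Mediator genes (green) at 90.5% and 75.0% and all protein-coding genes (grey) at 70.8% and 29.2%.

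By chromosome, an IDR peak was carried by 10 of 12 members on 3L, against 43.9% of all protein-coding genes there, and by 8 of 8 on 3R, against 44.3%. It was carried by 3 of 4 members on 2R, against 45.1%, and by 2 of 2 on 2L, against 39.5%. On X it was 1 of 2, against 49.2%, and on chromosome 4 it was 1 of 1, against 52.5%.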

How the data were processed

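The authors deposited ChIP-seq peak lists in the narrowPeak layout for 3 replicates, for the replicates pooled and for the IDR test. The lists are on build dm6 and were made with 1 shared control library, per the deposited listings; that library was not used here. Which aligner, peak caller and IDR cut-off were used is not given in the sources at hand. Each peak's signal value, as the authors deposited it, served to rank peaks within a list only. The authors also deposited −log10 q values, left aside here. The rounded length of 30000 peaks says nothing of depth.

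Genes came from Ensembl release 115 (BDGP6.54, dm6 coordinates) and sequence from the RefSeq copy of that assembly. Coordinates are 1-based. Where several peaks of a replicate covered an IDR summit, the strongest was used. Functions were checked on simulated peaks with known positions. Computation used Python 3.11.15, numpy 2.4.6, pandas 2.3.3 and scipy 1.17.1. Exact (Clopper-Pearson) intervals are at 95%.

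With 1 group there is no test between conditions, and counts are set beside those of all protein-coding genes. Labels call the replicates biological but name no separate cultures, so SDs measure these 3 samples. Members, gene lists, modules and patterns were chosen with earlier results of these data known. All members are named, sequences are given for those with the strongest peaks or DRE letters, with motif 1 added after its values were seen, and list genes only where they lead a list or, a choice made after their values were seen, lack a peak. Alternatives covered the peak list, strength, gene rule, windows and each replicate left out.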

Additional observations from a re-analysis of the deposited data

How the results depend on the processing

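Of 60 alternative values, 43 stayed within 1.5 times the reported count, its confidence interval or 1 SD. Several of the 43 could not leave these bounds. A list or rule that contains the reported one can only raise the counts of 25 and 21, to 29 at most. Members with an IDR peak (25) fell to 15 in the strongest 3448 peaks (3730 protein-coding genes, 26.7%), 6 with no upstream DNA, 14 where the nearest TSS had to be the member's, and 1 of 1 among members free of other coding genes. The nearest-TSS rule was not applied to all protein-coding genes. To leave a replicate out, IDR peaks were kept where the summit lay in a top-list peak of both other replicates. The IDR test itself was not rerun. Members with a peak were then 21, 19 and 23 without replicate 1, 2 or 3. In these lists 4610, 4441 and 4790 peaks remained, and 33.6%, 32.6% and 35.0% of all protein-coding genes carried a peak (44.2% in the whole list). A loss here means that no top-list peak of a remaining replicate covered the IDR summit. At MED18, MED31, MED4 and kto no top-list peak of replicate 3 covered it, so they were lost without replicate 1 or 2. At MED4 replicate 3 did have a top-list peak, rank 1282, which ended just short of the IDR summit. At MED17 and MED24 no top-list peak of replicate 1 covered it, so they were lost without replicate 2 or 3. At MED17 replicate 1 did have a top-list peak, rank 1792, with its summit at -224 bp against -145 bp for the IDR summit. Members in all 3 top lists (21) were 6 with no upstream DNA and 8 with top lists of 3448 peaks, and 21 to 24 with 1 replicate left out. The share within 250 bp of the member's TSS (82.8%) was 62.1% for 100 bp and 52.8% in the whole pooled list. The median rank percentile (36.8) was 47.1 by the top list of replicate 1, 43.4 by that of replicate 3, 44.1 with summits within 250 bp of a TSS, 36.3 to 43.3 with 1 replicate left out, and 10.1 in the pooled list, which is longer. Members with the DRE at a summit (2) were 7 for CGATA, 4 in the pooled list and 1 to 2 with 1 replicate left out. Members nearest another gene's TSS (13) ranged from 10 to 15. The causes were not tested. Read depth, unknown here, limits what the weak ranks can show.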
